A study of Rattus norvegicus with 4 samples.

Results

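The genes described here encode the matrix metalloproteases (Mmp), the ADAM, ADAMTS and ADAMTS-like proteins, and the tissue inhibitors of metalloproteases (Timp). They were chosen by gene symbol alone, as every table entry whose symbol begins with one of these names followed by a digit, which gave 62 of 17853 genes. These were 18 Mmp, 20 Adam, 18 Adamts and 5 Adamtsl genes and Timp2. All 62 were annotated as protein coding. The other Timp genes were not analysed here. The study sequenced polyadenylated RNA from rat brain after intracerebral hemorrhage, in which blood enters the brain. Its 4 groups were the side of the bleeding (ipsilateral) and the opposite side (contralateral) at 13 months of age, called adult, and both sides at 21 months, called old. All groups came from rats with a hemorrhage, so the opposite side of the same condition was the comparison and no uninjured rats are among the samples analysed here. Each group held 1 library of pooled RNA, for which the labels' protocols name 9 rat brains without saying how they were divided, and the labels give neither strain, sex, hemorrhage model nor the time after the bleeding.

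Values are RPKM, read numbers scaled to gene length and to the mapped reads of a library, so that levels can be set side by side between genes. The deposited sums were 388632 to 402100 RPKM per library, and the read depth behind them is unknown. Differences between libraries are given as log2 ratios of RPKM after adding 1 RPKM, which understates the change of low genes. With 1 library per group a ratio has no replicate error and no test. As a second summary, limma fitted the side over both ages with age as an added term to the 12160 genes that averaged 1 RPKM or more. "Rose" and "fell" are used below only for genes that passed that fit at a Benjamini-Hochberg adjusted p under 0.05. Whether the libraries came from separate animals is not stated, so these p-values do not measure a spread between animals. The spread they use is how far the side ratios of the ages differ, pooled over genes. The neuron gene Snap25 (298 to 460 RPKM) and the astrocyte gene Aqp4 (94.8 to 135 RPKM) were present in every library.

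Matrix metalloproteases are zinc enzymes that cut proteins of the extracellular matrix and are made as inactive precursors. ADAM proteins sit in the cell membrane, where the active ones release the outer parts of receptors, cytokines and adhesion molecules, a process called shedding. ADAMTS enzymes are secreted and cut proteoglycans, procollagens and other matrix proteins, while ADAMTS-like proteins have no protease domain. TIMPs bind the active enzymes and block them. In injured brain these enzymes are best known for the breakdown of the basement membrane around vessels and for the release of inflammatory signals.

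Of the 62 members 23 had a mean of at least 1 RPKM and 39 lay below it. Among the 23, 6 were higher on the ipsilateral side by a log2 ratio of at least 1 (2-fold) at 13 months, against 7.19% of all genes tested. These were Mmp14, Adam8, Adam17, Mmp19, Adamts1 and Mmp9. At 21 months 3 members passed the same size, Adam8, Mmp14 and Adam15, against 5.61% of all genes. At both ages these were Mmp14 and Adam8, 2 of 23, against 4.75% of all genes. None of the 23 was lower by as much at either age, where 0.0658% and 0.288% of all genes were. In limma 9 of 23 rose, against 13.3% of all genes, and 0 fell, against 0.814% (10 and 1 at an unadjusted p under 0.05, against 18.9% and 4.47% of all genes). The 9 were Mmp14, Adam8, Adam17, Mmp19, Adam15, Mmp9, Adamts1, Mmp2 and Adam9, of which Adam9 lost its call under every alternative setting and Mmp2 under 2. With no filter on low values 0 members rose. A gene that is low contralaterally reaches the mean of 1 RPKM more easily when it is high ipsilaterally. Adam8, Mmp9 and Mmp19 reached it in this way, since their contralateral values were all under 1 RPKM, and the counts among the 23 are therefore partly set by the filter. The median log2 side ratio of the 23 was 0.27 at 13 months and 0.22 at 21 months, beside 0.01 and 0.09 over all genes tested.

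**Figure D1:**
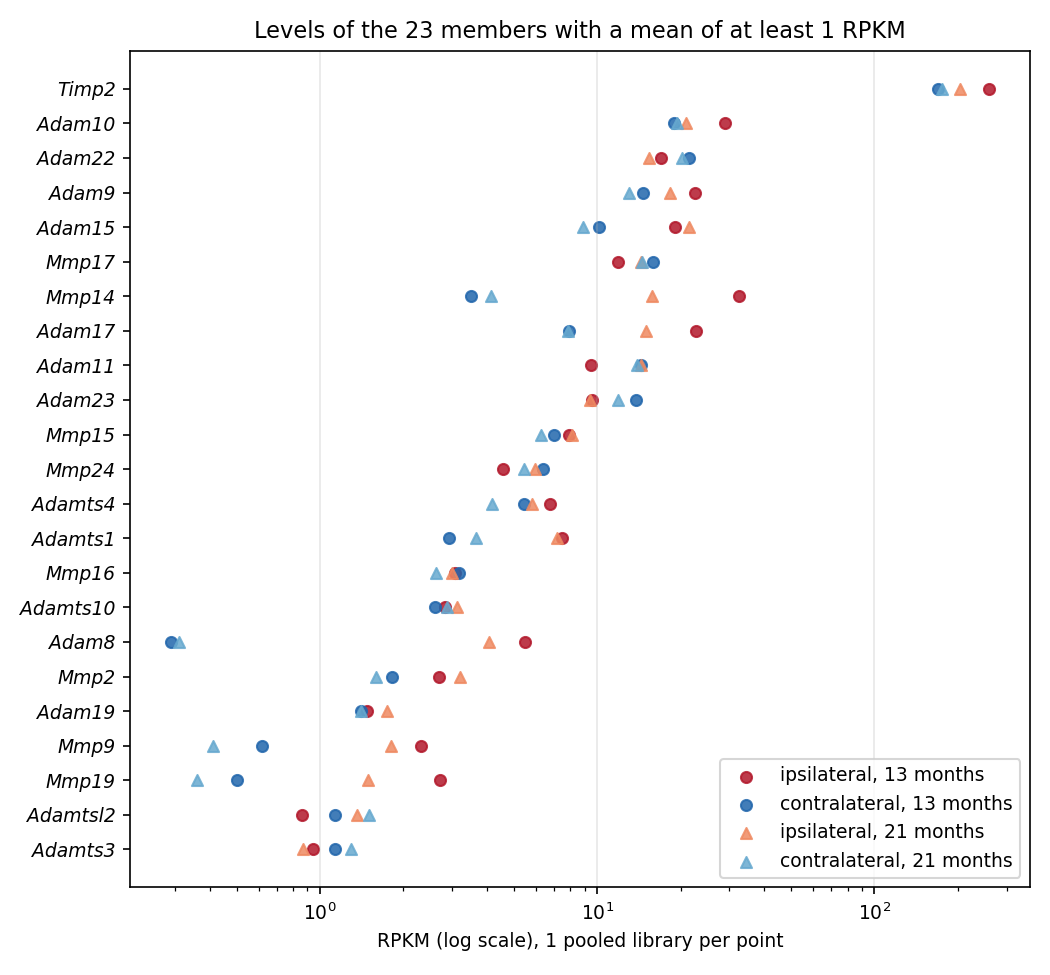
RPKM on a log scale of the 23 members that averaged 1 RPKM or more, 1 point per pooled library, ordered by mean level. Timp2 stands far to the right at 170 to 259 RPKM, and the red ipsilateral points lie well to the right of the blue contralateral ones for Mmp14, Adam8, Mmp9 and Mmp19.

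Timp2, which inhibits metalloproteases and also helps MMP14 to activate the precursor of MMP2, was the most abundant member. It had 259 RPKM ipsilaterally and 169.6 contralaterally at 13 months, and 204 and 175 RPKM at 21 months. Both ipsilateral libraries were above both contralateral ones, by a log2 ratio of 0.61 at 13 months and 0.22 at 21 months. Timp2 did not pass in limma (adjusted p = 0.14). The next most abundant member, Adam10, had a mean of 22.1 RPKM.

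Mmp14 (ENSRNOG00000010947, chromosome 15) encodes the membrane-anchored protease MT1-MMP, which cuts collagen and activates the precursor of MMP2. It had 32.4 RPKM ipsilaterally and 3.51 contralaterally at 13 months, and 15.8 and 4.13 RPKM at 21 months. Both ipsilateral libraries were far above both contralateral ones, and the higher of the ipsilateral ones was that of the adult rats. The RPKM ratio was 9.24 at 13 months and 3.83 at 21 months, log2 ratios of 2.89 and 1.71. In limma Mmp14 rose by 2.30 ± 0.21 (log2, SE, 2 libraries per side, adjusted p = 3.8e-08), the highest value among the 23. Within a library, where no scaling between libraries enters, Mmp14 amounted to 12.5% of the Timp2 level ipsilaterally and 2.07% contralaterally at 13 months. At 21 months these shares were 7.74% and 2.36%.

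The other membrane-type genes did not share the pattern of Mmp14. Mmp15 had 7.88 and 7.01 RPKM at 13 months and 8.11 and 6.29 RPKM at 21 months, ipsilateral first. Mmp16 lay between 2.63 and 3.17 RPKM in all 4 libraries. Mmp17, whose product is held by a lipid anchor, had 11.9 and 15.9 RPKM at 13 months and 14.4 and 14.5 RPKM at 21 months. Mmp24, known from neurons, had 4.58 and 6.36 RPKM at 13 months and 5.98 and 5.44 RPKM at 21 months. None of these 4 passed in limma, with fitted changes from -0.20 to 0.24. Summed over all 18 Mmp genes, the level was 71.3 RPKM ipsilaterally and 40.1 contralaterally at 13 months, and 56.3 and 36.4 RPKM at 21 months. Without Mmp14 the sums were 38.9 and 36.6 RPKM at 13 months and 40.5 and 32.3 RPKM at 21 months, so that most of the difference between the sides was carried by this 1 gene.

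The gelatinases Mmp2 and Mmp9 cut denatured collagen and the type IV collagen of basement membranes. Mmp9 (ENSRNOG00000017539, chromosome 3) had 2.31 RPKM ipsilaterally and 0.62 contralaterally at 13 months, and 1.80 and 0.41 RPKM at 21 months. The RPKM ratio of Mmp9 was 3.73 at 13 months and 4.39 at 21 months. With 1 RPKM added, the log2 ratios were 1.03 and 0.99, on either side of the 2-fold limit. Mmp9 rose by 1.01 ± 0.17 in limma (SE, 2 libraries per side, adjusted p = 0.00012). Mmp2 had 2.69 and 1.82 RPKM at 13 months and 3.21 and 1.59 RPKM at 21 months. It rose by 0.54 in limma (adjusted p = 0.037), with the higher ratio in the old rats (0.39 and 0.70). The call of Mmp2 held in 2 of the 4 alternatives that tested it, with adjusted p from 0.017 to 0.21, and was lost after rescaling without mitochondrially encoded genes (adjusted p = 0.11) and with no filter. Mmp9 amounted to 85.9% of the Mmp2 level ipsilaterally and 34.1% contralaterally at 13 months, and to 56.1% and 25.8% at 21 months. Mmp19, a secreted metalloprotease of wide substrate range, had 2.70 and 0.50 RPKM at 13 months and 1.49 and 0.36 RPKM at 21 months. The RPKM ratios of Mmp19 were 5.4 and 4.14, log2 ratios of 1.30 and 0.87 with 1 RPKM added. It rose by 1.09 in limma (adjusted p = 7.7e-05). Mmp9 and Mmp19 passed the filter through their ipsilateral values. With no filter on low values their adjusted p in limma was 0.095 and 0.146.

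The table placed 8 Mmp genes on chromosome 8, and these neighbour each other in the RefSeq gene order of the GRCr8 rat assembly. They were taken as a group by position after their values were seen. All 8 had a mean under 1 RPKM and were not tested, and low values are the least certain. Mmp8, the collagenase of neutrophils, had 0.87 RPKM ipsilaterally and 0.08 contralaterally at 13 months, and 0.90 and 0.20 RPKM at 21 months. Mmp12, the elastase of macrophages, had 0.60 and 0.05 RPKM at 13 months and 0.38 and 0.01 RPKM at 21 months. Mmp7, or matrilysin, had 1.08 and 0.07 RPKM at 13 months and 0.25 RPKM ipsilaterally at 21 months, where the contralateral library listed it at 0. In these 3 genes and in the stromelysin gene Mmp3 and the collagenase gene Mmp13 both ipsilateral libraries were above both contralateral ones. That made 5 of 8, whereas 21.4% of all genes under 1 RPKM had this order. Mmp3 reached 0.28 RPKM and Mmp13 0.21 RPKM at most. Mmp10, the second stromelysin, had at most 0.06 RPKM, and Mmp1b and the tooth enamel protease gene Mmp20 at most 0.02 and 0.01 RPKM.

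**Figure D2:**
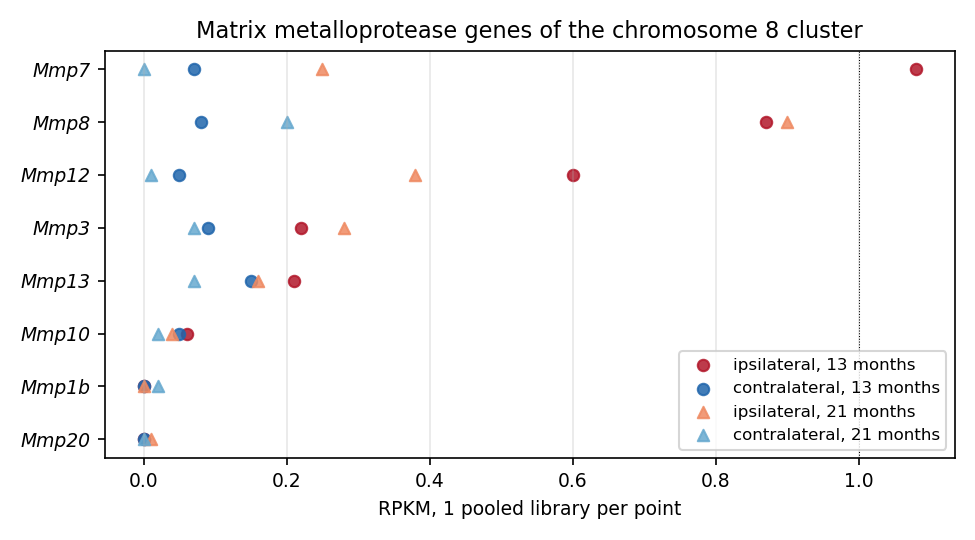
RPKM of the 8 Mmp genes of the chromosome 8 cluster, 1 point per pooled library, with a dotted line at 1 RPKM. The ipsilateral points of Mmp7, Mmp8 and Mmp12 lie apart from their contralateral points, Mmp8 at 0.87 and 0.90 against 0.08 and 0.20 RPKM, while the other 5 genes stay at or under 0.28 RPKM.

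RefSeq promoters of GRCr8, the 250 bases before the annotated start, were matched by symbol for 41 of the 62 members and searched on both strands for 6 motifs. The AP-1 motif TGANTCA was in 7 of 41 member promoters, 17.1%, and in 6.35% of 33360 rat promoters. Of these 7, all but Adam19 belonged to the chromosome 8 cluster: Mmp3, Mmp7, Mmp10, Mmp12, Mmp13 and Mmp20. The same 6 also held the TATA box TATAAA, so that AP-1 and TATA motifs stood together in 14.6% of member promoters and in 1.02% of all. The TATA box, with or without AP-1, was in 31.7% of member promoters and 12.9% of all, and Mmp8 was among those that had it without AP-1. The GC box GGGCGG was in 22 of 41 member promoters, 53.7%, against 30.5% of all, among them Adam8, Adam15, Adam17, Adamts1 and Timp2. The PEA3 motif AGGAAG (31.7% of members, 29.5% of all), CCAAT (29.3% and 34%) and the NF-kB motif (9.76% and 6.34%) were searched in the same way. A match of letters is a description and not a site shown to be used. The 120 bases before the start are printed for 6 cluster genes, with and without the AP-1 motif, 5′ to 3′ on the strand of the gene, with AP-1, TATA and GC box letters of either strand in capitals, so that the shared layout of an AP-1 motif upstream of a TATA box can be seen.
Mmp13 (chr8:12782709-12782828, plus strand): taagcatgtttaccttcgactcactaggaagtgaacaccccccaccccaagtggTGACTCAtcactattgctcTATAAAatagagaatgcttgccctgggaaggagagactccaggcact
Mmp12 (chr8:12866532-12866651, plus strand): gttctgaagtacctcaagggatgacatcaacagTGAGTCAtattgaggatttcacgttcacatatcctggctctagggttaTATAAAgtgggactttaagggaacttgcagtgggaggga
Mmp3 (chr8:12925161-12925280, plus strand): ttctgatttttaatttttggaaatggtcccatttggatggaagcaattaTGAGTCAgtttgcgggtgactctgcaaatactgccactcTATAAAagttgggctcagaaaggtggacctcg
Mmp10 (chr8:12974587-12974706, plus strand): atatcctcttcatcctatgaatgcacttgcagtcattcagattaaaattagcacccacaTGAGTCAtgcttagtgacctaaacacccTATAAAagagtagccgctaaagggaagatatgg
Mmp8 (chr8:13008770-13008889, plus strand): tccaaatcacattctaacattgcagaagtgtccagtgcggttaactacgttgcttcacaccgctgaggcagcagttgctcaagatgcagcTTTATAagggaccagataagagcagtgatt
Mmp7 (chr8:13132923-13133042, plus strand): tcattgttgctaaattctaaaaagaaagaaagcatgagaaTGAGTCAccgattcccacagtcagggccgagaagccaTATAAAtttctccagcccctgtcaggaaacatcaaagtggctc
The AP-1 motif began 87 bases before the start in Mmp12 and 80 in Mmp7, the TATA box 39 and 43 bases before it. In Mmp3 these places were 71 and 32, in Mmp10 61 and 33, and in Mmp13 66 and 47. The layout was shared by genes whose ipsilateral levels differed widely, from Mmp7 at 1.08 RPKM to Mmp10 at 0.06 RPKM at 13 months.

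Among the ADAM genes, Adam8 (ENSRNOG00000017897, chromosome 1), known from leukocytes and activated microglia, had the largest RPKM ratio of the 23 members tested. It had 5.49 RPKM ipsilaterally and 0.29 contralaterally at 13 months, and 4.08 and 0.31 RPKM at 21 months. The RPKM ratio was 18.9 at 13 months and 13.2 at 21 months, log2 ratios of 2.33 and 1.96 with 1 RPKM added. Both contralateral libraries were close to each other and both ipsilateral ones were far above them. In limma Adam8 rose by 2.14 ± 0.17 (SE, 2 libraries per side, adjusted p = 5.0e-09). It passed the filter through its ipsilateral values, and with no filter on low values its adjusted p in limma was 0.095.

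ADAM17, first named as the enzyme that releases tumour necrosis factor, and ADAM10 are the main sheddases of the cell surface. Adam17 (ENSRNOG00000060694, chromosome 6) had 22.8 RPKM ipsilaterally and 7.90 contralaterally at 13 months, and 15.0 and 7.85 RPKM at 21 months. The contralateral libraries of both ages were nearly equal, and the ipsilateral ones were higher by log2 ratios of 1.42 and 0.85. Adam17 rose by 1.14 ± 0.18 in limma (SE, 2 libraries per side, adjusted p = 6.2e-05). Adam10 had 28.9 and 19.0 RPKM at 13 months and 21.0 and 19.4 RPKM at 21 months. Its side ratios were 0.58 and 0.10, and it did not pass (adjusted p = 0.26). Within each library Adam17 was at 79.0% of the Adam10 level ipsilaterally and 41.6% contralaterally at 13 months, and at 71.4% and 40.4% at 21 months. The unequal change of the sheddase genes was thus visible without any scaling between libraries.

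**Figure D3:**
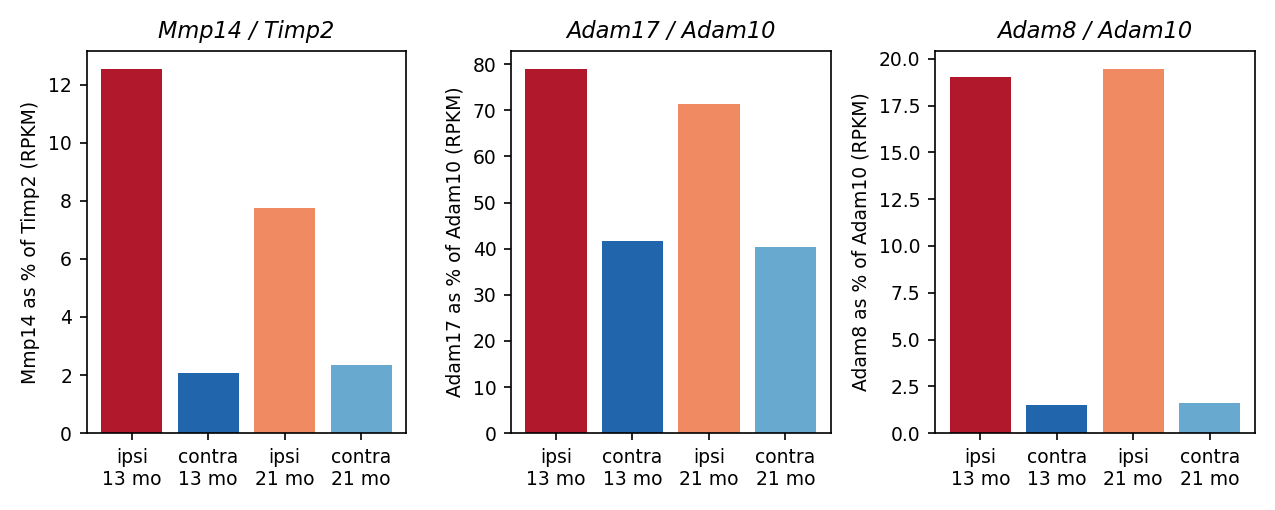
Level of Mmp14 as a percentage of Timp2, of Adam17 as a percentage of Adam10 and of Adam8 as a percentage of Adam10, each within 1 library (bars, no replicates, axes from 0). In each panel both ipsilateral bars are above both contralateral bars, for Adam17 at 79.0% and 71.4% against 41.6% and 40.4%.

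Adam15 (chromosome 2), a membrane protease with an integrin-binding sequence, had 19.0 RPKM ipsilaterally and 10.1 contralaterally at 13 months, and 21.4 and 8.90 RPKM at 21 months. It was the 1 member past 2-fold at 21 months alone, with log2 ratios of 0.85 and 1.18, and it rose by 1.01 in limma (adjusted p = 0.00015). Adam9 had 22.5 and 14.6 RPKM at 13 months and 18.3 and 13.0 RPKM at 21 months, and had a fitted change of 0.52 (adjusted p = 0.041 in limma). This call was lost under all 5 alternative settings, with adjusted p from 0.0645 to 0.157. Adam19 stayed between 1.41 and 1.75 RPKM. Of the 9 members that rose, the promoters of 4 (Adam8, Adam15, Adam17 and Adamts1) were matched and are shown beside that of Timp2 for contrast with the cluster genes, marked in the same way.
Adam8 (chr1:204218323-204218442, minus strand): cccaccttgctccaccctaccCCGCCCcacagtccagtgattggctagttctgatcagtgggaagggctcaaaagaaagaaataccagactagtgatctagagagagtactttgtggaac
Adam15 (chr2:177062850-177062969, minus strand): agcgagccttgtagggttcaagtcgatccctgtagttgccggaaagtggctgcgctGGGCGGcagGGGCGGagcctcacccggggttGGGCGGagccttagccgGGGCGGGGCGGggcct
Adam17 (chr6:46649345-46649464, minus strand): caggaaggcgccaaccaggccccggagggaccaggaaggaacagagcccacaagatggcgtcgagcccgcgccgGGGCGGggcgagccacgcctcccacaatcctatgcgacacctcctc
Adamts1 (chr11:38427385-38427504, minus strand): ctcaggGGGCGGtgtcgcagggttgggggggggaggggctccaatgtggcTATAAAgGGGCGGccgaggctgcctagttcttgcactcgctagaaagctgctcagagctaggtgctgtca
Timp2 (chr10:104089215-104089334, minus strand): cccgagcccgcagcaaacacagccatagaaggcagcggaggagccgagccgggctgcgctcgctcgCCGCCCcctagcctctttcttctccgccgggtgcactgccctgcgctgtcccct
Each of these 5 held a GC box within the 120 bases printed, and none held the AP-1 motif in the 250 bases searched, which says nothing of the 5 risen members not analysed here. In Adam15 there were 5 GC boxes, the last 2 sharing a base, and in Adamts1 2 with a TATA box between them.

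ADAM11, ADAM22 and ADAM23 lack protease activity, and ADAM22 and ADAM23 serve at synapses as receptors of the secreted protein LGI1. Adam22 had 17.0 RPKM ipsilaterally and 21.4 contralaterally at 13 months, and 15.4 and 20.2 RPKM at 21 months. Adam23 had 9.55 and 13.8 RPKM at 13 months and 9.40 and 11.8 RPKM at 21 months. In both genes the ipsilateral libraries were below the contralateral ones at both ages, with fitted changes of -0.34 and -0.39 that did not pass in limma (adjusted p = 0.23 and 0.15). Adam11 had 9.47 and 14.4 RPKM at 13 months, but 14.4 and 13.9 RPKM at 21 months. Of the 4 LGI genes none passed in limma, with side ratios of -0.50 and -0.33 for Lgi1 and of -0.02 and 0.63 for Lgi4, which acts on myelinating glia. The fitted change of Adam23 was the lowest of the 23 members. Of 10 neuron markers, 1 fell in limma, and their median side ratios were -0.42 at 13 months and -0.25 at 21 months, with summed levels of 1350.3 and 1537 RPKM ipsilaterally and 1870 and 1811 RPKM contralaterally. In bulk tissue fewer cells of a type and less RNA per cell cannot be told apart, and the part of neuron number in the values of the brain ADAM genes was not tested.

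Among the ADAMTS genes, Adamts1 and Adamts4 encode proteoglycanases that cut the aggrecan family. Adamts1 (chromosome 11) had 7.47 RPKM ipsilaterally and 2.91 contralaterally at 13 months, and 7.15 and 3.64 RPKM at 21 months. Both ipsilateral values were nearly equal and lay above both contralateral ones, and Adamts1 rose by 0.96 ± 0.17 in limma (SE, 2 libraries per side, adjusted p = 0.00025). Adamts4 had 6.74 and 5.44 RPKM at 13 months and 5.83 and 4.18 RPKM at 21 months, higher ipsilaterally at both ages by log2 ratios of 0.27 and 0.40 that did not pass (adjusted p = 0.25). Adamts10, which binds fibrillin, lay between 2.59 and 3.12 RPKM. Adamts3, a procollagen propeptidase, had 0.94 and 1.13 RPKM at 13 months and 0.87 and 1.29 RPKM at 21 months. Adamtsl2, which has no protease domain, had 0.86 and 1.13 RPKM at 13 months and 1.36 and 1.50 RPKM at 21 months. Adamts10, Adamts3 and Adamtsl2 did not pass.

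**Figure D4:**
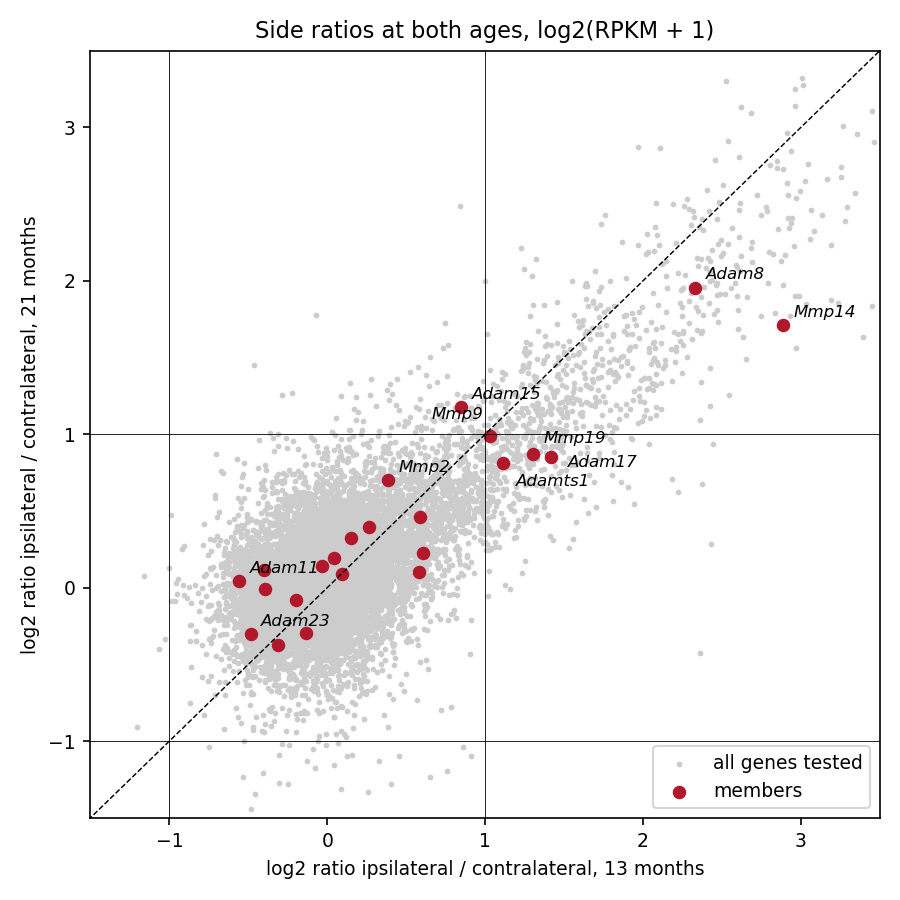
Side ratio (log2, with 1 RPKM added to both values) at 13 months (x axis) and 21 months (y axis) for the 23 members (red) and all 12160 genes tested (grey, 39 of them outside the axes), with lines at a ratio of 1 and -1 and a dashed line of equal ratios. Mmp14 (2.89 and 1.71) and Adam8 (2.33 and 1.96) lie in the upper right below the dashed line, and Adam15 (0.85 and 1.18) lies above it.

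Below the mean of 1 RPKM lay 39 members, of which 11 stayed under 0.1 RPKM and 27 under 0.5 RPKM in every library. Besides Mmp7, those with at least 1 library at 1 RPKM were Adamts8, Adamts9, Adamts15 and Adamtsl4. The proteoglycanase genes Adamts9 and Adamts8 had 1.34 and 1.03 RPKM ipsilaterally and 0.55 and 0.58 contralaterally at 13 months, and 1.05 and 0.94 against 0.67 and 0.43 RPKM at 21 months. In both genes the groups of each side did not overlap. Adamts15 had 0.79 and 0.77 RPKM at 13 months and 1.01 and 0.55 RPKM at 21 months, and Adamtsl4 had 0.73 and 0.60, then 1.01 and 0.64 RPKM. The aggrecanase gene Adamts5 had 0.36 and 0.34 RPKM ipsilaterally and 0.23 and 0.24 contralaterally. The 8 measured genes known from testis or the reproductive tract summed to 0.50 to 0.71 RPKM per library. Of the 39 low members 14 had both ipsilateral libraries above both contralateral ones, against 21.4% of all genes under 1 RPKM, and 5 the reverse, against 12.1%. Of the 23 members above the limit 14 had the first order, against 34.4% of all genes tested. The reverse was seen in 4 (Adam22, Adam23, Mmp17 and Adamts3), against 22.1%.

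Between the ages no member of the 23 passed 2-fold on either side. On the ipsilateral side 0.321% of all genes were higher and 0.658% lower at 21 months by as much, and on the contralateral side 0.206% and 0.132%. Mmp14 came closest, with 32.4 RPKM in the adult and 15.8 RPKM in the old ipsilateral library, a log2 ratio of -0.99, while its contralateral ratio was 0.19. With 0.1 RPKM added in place of 1, or with the libraries scaled by their median ratio, Mmp14 passed 2-fold. Adam17 and Mmp19 followed at -0.57 on the ipsilateral side, and Adam11 was highest at 0.55. Contralateral ratios of the 23 stayed between -0.31 (Adamts4) and 0.25 (Adamts1). The 6 members past 2-fold at 13 months all had a smaller side ratio at 21 months, as had 83.3% of all genes past 2-fold at 13 months. These genes were selected by their 13 month value, so a smaller value at the other age is no separate finding, and with 1 library per group the difference between ages was not tested.

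The genes that act together with these enzymes were described from lists of textbook partners, with limma calls beside the 13.3% of all genes that rose and the 0.814% that fell. Some list genes, such as Rhbdf2, Sdc1, Thbs1 and Batf, had contralateral values under 1 RPKM and passed the filter through the ipsilateral side. The counts in the lists are therefore partly set by the filter. Plasmin, released from plasminogen by its activators, can activate precursors of metalloproteases, and 6 of 10 tested genes of this system rose and 0 fell. The plasminogen receptor gene Anxa2 rose by 2.34, whereas Plat, the tissue-type activator, lay between 20.7 and 23.1 RPKM in all libraries, and Serpini1, the neuronal inhibitor, had ratios of -0.36 and -0.18. Among the proprotein convertases, which remove the propeptides of ADAM and membrane-type enzymes, Furin had 7.28 and 3.35 RPKM at 13 months and 7.68 and 3.36 RPKM at 21 months. Furin rose by 0.96 and was the 1 of 4 that passed, with ratios for Pcsk7 of 0.41 and 0.29, Pcsk6 of -0.07 and 0.41 and Pcsk5 of -0.19 and -0.02.

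Of 12 tested partners of ADAM10 and ADAM17 4 rose and 0 fell. Rhbdf2 encodes iRhom2, which carries ADAM17 to the surface in immune cells, and had 3.23 and 0.66 RPKM at 13 months and 2.57 and 0.64 RPKM at 21 months. It rose by 1.24 in limma (adjusted p = 1.1e-05), having passed the filter through its ipsilateral values. Its binding partner Frmd8 rose by 0.65, while Tspan33 (-0.35 and -0.17) and Sh3gl2 (-0.56 and -0.24) had the lowest ratios of this list. Rhbdf2 was at 116% of the level of its paralog Rhbdf1 ipsilaterally and 33.0% contralaterally at 13 months, and at 86.5% and 36.0% at 21 months. Of 23 tested cell surface proteins that ADAM10 or ADAM17 can shed 15 rose and 0 fell, with median ratios of 0.83 and 0.55. The proteoglycan gene Sdc1 rose by 4.0 and the membrane chemokine gene Cxcl16 by 2.46, whereas Cx3cl1 (-0.57 and 0.01) and L1cam (-0.44 and -0.15), both of neurons, were lowest.

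Of 7 tested genes listed as protease inhibitors other than TIMPs, not all of them inhibitors of metalloproteases, 0 rose and 1 fell. Tfpi2, A2m and Pzp had means under 1 RPKM and were not tested. Tfpi2 had 1.79 RPKM ipsilaterally and 0.36 contralaterally at 13 months, and 1.24 and 0.29 RPKM at 21 months. A2m had 0.93 and 0.47, then 1.19 and 0.37 RPKM, and Pzp at most 0.04 RPKM. Spock3, a testican proteoglycan, fell by 0.61 on the log2 scale and Spock2 had ratios of -0.49 and -0.45. Serpina1 had ratios of 0.03 and 0.31, and Cst3, a cysteine protease inhibitor, -0.40 and 0.60. Among substrates, 1 of 8 lecticans, link proteins and related genes rose, namely Vcan, which encodes the proteoglycan versican, by 1.69. Bcan had ratios of -0.73 and -0.20, Reln -0.38 and -0.24, and Ncan 0.29 and 0.59. Of 14 basement membrane and tight junction genes 2 rose, Col4a1 by 1.01 and Lamc1 by 0.53, and 0 fell, with ratios for Lamb1 of 0.08 and -0.21 and for Agrn of -0.19 and 0.0. Of 10 fibrillar matrix genes 7 rose and 0 fell, led by Thbs1 at 2.24 and Fn1 at 1.40, with Lum (0.69 and 0.01) and Col5a1 (0.08 and 0.0) lowest. Of 8 AP-1 subunit genes 3 rose and 0 fell, Batf by 2.39 and Atf3 by 1.37 as the highest, with Fos (-0.27 and -0.11) and Fosb (-0.55 and -0.23) lowest. Of 5 genes of metalloprotease induction and uptake 2 rose, Lgmn, a lysosomal protease gene, by 2.44 and Mrc1 by 2.13, whereas Bsg, an inducer of metalloproteases, had ratios of -0.22 and 0.57 and Mrc2 of 0.12 and 0.0.

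Markers of several other cell types differed between the sides as well. Some of them, such as Msr1 and Fcnb, had contralateral values under 1 RPKM and passed the filter through the ipsilateral side. The counts of markers that rose are therefore partly set by the filter. Of 9 tested monocyte or macrophage markers 8 rose in limma, and the 10 markers in the table summed to 753 and 399 RPKM ipsilaterally against 78.8 and 48.2 RPKM contralaterally, 13 months first. Of the 9 neutrophil markers listed, 5 had a mean of at least 1 RPKM and were tested, and all 5 rose; the 9 summed to 792 and 582 RPKM against 42.8 and 29.5 RPKM, most of it Lcn2, which reactive astrocytes also make. Mpo (at most 0.04 RPKM) and Ngp (at most 0.21 RPKM, lower ipsilaterally at both ages), which define neutrophil granules, were near 0, Camp and Cxcr2 were at most 0.42 and 0.38 RPKM, and S100a8 had 19.4 and 12.6 RPKM ipsilaterally against 1.23 and 2.71 RPKM. Of 7 tested microglia markers 5 rose, with sums of 246 and 218 RPKM against 95.7 and 89.0 RPKM. Of 10 T or NK cell markers 3 were tested and all 3 rose, but Cd8a and Cd2 passed the filter through their ipsilateral values. The 10 summed to 47.8 and 30.2 RPKM against 7.22 and 7.38 RPKM. Cd8a alone had 21.8 and 8.32 against 0.51 and 0.25 RPKM, and Cd4 14.5 and 19.0 against 5.40 and 5.87 RPKM. Cd3d, Cd3g and Cd3e were not tested and had at most 1.60, 1.47 and 1.11 RPKM. Nkg7 and Gzmb, also not tested, had at most 0.65 and 0.12 RPKM. Endothelial markers passed in 0 of 8, with sums of 82.0 and 78.4 RPKM against 67.8 and 74.6 RPKM. Pericyte, fibroblast or meningeal markers rose in 2 of 9, with sums of 50.4 and 46.9 RPKM against 40.5 and 43.7 RPKM. Of 10 astrocyte markers 1 rose, Gfap of reactive astrocytes, by 1.61. The 10 summed to 1812 and 1989.6 RPKM against 1169 and 1040.5 RPKM. Gfap alone had 1151 and 1225 against 443 and 340 RPKM, and the median side ratios of the 10 were -0.13 and 0.12. Of 10 oligodendrocyte markers 0 passed, with sums of 2112 and 2826 RPKM against 2521 and 2371 RPKM. Of 9 choroid plexus markers 5 fell, with sums of 678 and 1076 RPKM against 1231 and 1812 RPKM. Of 5 tested pineal or pituitary markers 3 fell (Tph1, Gngt1 and Pde6g), which were highest in the adult contralateral library. Tph1 and Gngt1 passed the filter through that library alone, as their other values were under 1 RPKM, so their calls are partly set by the filter. Gngt1 had 0.03 RPKM ipsilaterally and 6.05 contralaterally at 13 months, and 0.06 and 0.24 RPKM at 21 months. Tph1 had 0.27 RPKM ipsilaterally and 10.4 contralaterally at 13 months, and 0.13 and 0.44 RPKM at 21 months, and the markers of this list summed to 10.3 and 4.60 RPKM ipsilaterally against 32.1 and 12.5 RPKM. The part of cell or tissue content in the values of Adam8, Mmp14, Mmp9, Adam17 and the chromosome 8 cluster was not tested.

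The limma calls lean on a spread pooled over genes, since 1 residual degree of freedom remains, made up of how far the side ratios of the ages differ. When low genes were kept in, limma called 0 of 17853 genes in either direction, members included. At an unadjusted p under 0.05 in limma, 14 of the 62 members and 2641 of the 17853 genes were higher.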

How the data were processed

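RNA of rat brain was sequenced in 4 libraries, 1 for each side and age. Per the labels' protocols, total RNA of 9 rat brains was pooled in equal amounts, and polyadenylated RNA from 10 µg per sample was made into strand-keeping libraries with products of 200 to 500 bp. Cutadapt, TopHat2 and edgeR are named in the submitters' processing notes, with no version or role, together with the human build GRCh38, while the identifiers of the table are rat Ensembl genes. The build behind the values is therefore not settled, and how reads were counted over which gene lengths is not given in the sources used here.

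RPKM values with 2 decimals were deposited by the authors for 17853 genes. No read counts or depths come with them, and values just above 0 lie close to the rounding step of 0.01 RPKM, so whole reads were not recovered and no counting interval is given. Columns were matched to samples by the age and side code of the titles. Log2(RPKM + 1) was used for the 12160 genes that averaged 1 RPKM or more. For each age the sides, and for each side the ages, were compared by the log2 ratio between 2 libraries, untested, and counted at 1 (2-fold). Limma 3.58.1 (R 4.3.3) fitted the side with age as an additive term, two-sided, with Benjamini-Hochberg adjustment over all 12160 genes at 0.05. For repeated symbols in lists the most abundant entry was taken.

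Members, lists and rules were chosen with earlier results of these data known. Members past 2-fold in any comparison, Timp2, Adam10, Adam17 and the 3 highest and 3 lowest by mean side ratio were named with every value, low members where a library reached 1 RPKM, and of each partner list the 2 highest and 2 lowest by mean side ratio. Other members named were chosen after seeing the data. Values of some list genes under this rule are not reported here. Alternatives tried were a pseudocount of 0.1 RPKM, no filter, a minimum mean of 5 RPKM, scaling by median ratio and rescaling without mitochondrially encoded genes. Promoters are those of RefSeq (GRCr8), whose build may differ from that of the table.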

Additional observations from a re-analysis of the deposited data

Results flagged for a closer look

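In 3 members the side ratio had opposite signs at the 2 ages, a difference that was not tested because each group held 1 library. Adam11 was lower ipsilaterally at 13 months (-0.56) and near equal at 21 months (0.04), a difference of 0.60 on the log2 scale. Mmp24 had -0.40 and 0.12, a difference of 0.52. Mmp16 had -0.04 and 0.14, a difference of 0.18, with all 4 values between 2.63 and 3.17 RPKM.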

How the results depend on the processing

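With 1 pooled library per group and unknown depth, single values and ratios carry no error, the SE of a limma change rests on 1 residual degree of freedom, and leaving out a library was not possible. The limma fit already compares the sides within each age. No paired analysis by replicate number was possible because the labels give none. With 0.1 RPKM added in place of 1, 5 members in place of 3 were higher by 2-fold at 21 months (Mmp9 at 1.90 and Mmp19 at 1.79 in addition), 4 in place of 2 at both ages, and 1 member, Mmp14, was lower by 2-fold in the old ipsilateral library. Median-ratio scaling also gave 1 member past 2-fold between the ipsilateral libraries. The shares of all genes past 2-fold were not counted under the alternatives. With a mean of at least 5 RPKM 14 members were left, of which 3 in place of 6 were higher by 2-fold at 13 months, 1 at both ages, and 4 in place of 9 rose in limma. Of all 8018 genes left under that limit 841 rose. With no filter on low values 0 members rose in limma, with 0.1 RPKM added or median-ratio scaling 8 rose (all but Adam9), and after rescaling without mitochondrially encoded genes 7 (all but Adam9 and Mmp2). Of all 12160 genes 1590 rose with 0.1 RPKM added, 1541 with median-ratio scaling and 1173 after rescaling without mitochondrially encoded genes. Under the last setting Mmp9 was at 0.97 at 13 months, Adam10 at 0.00 and Adam11 at -0.06 at 21 months, and under median-ratio scaling Adam11 was at -0.06. No member was lower by 2-fold on the ipsilateral side at either age under any of the 5 alternatives, and none of the members named with every value that was past 2-fold changed its direction in the 3 alternatives run on single members.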

Other observations

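Proteases of the cell surface and the extracellular space outside these families were looked up in a list written after the values of the members had been seen. Of 22 genes 16 had a mean of at least 1 RPKM, with median side ratios of -0.05 at 13 months and 0.02 at 21 months. In limma 4 of the 16 rose, against 13.3% of all genes, and 0 fell, against 0.814%. Anpep, the aminopeptidase N of myeloid cells and pericytes, had 14.9 RPKM ipsilaterally and 0.74 contralaterally at 13 months, and 6.48 and 0.59 RPKM at 21 months. It rose by 2.71, having passed the filter through its ipsilateral values. Klk6, a serine protease of oligodendrocytes, had 41.2 and 16.7 RPKM at 13 months and 44.8 and 14.5 RPKM at 21 months and rose by 1.41. Ece1, which activates endothelin, rose by 0.75, and Bmp1, a procollagen C-proteinase, by 0.64. The beta-secretase gene Bace1 had ratios of -0.24 and 0.02, and Mme, which encodes the amyloid-degrading neprilysin, -0.04 and -0.40.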
